A study of Mus musculus with 14 samples.

Results

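The genes described here make cholesterol, sense it and move it out of the cell or into storage. They were taken from a list of 35 gene names, of which 34 have an entry in the expression table of 39721 entries, and all 34 were among the 11977 named entries that passed the filter on low values. Of the 34 entries, 30 name the gene alone. The other 4 also name neighbouring genes, so their values cannot be given to the member alone: Tm7sf2 (with Vps51 and Zfpl1), Srebf1 (with mmu-mir-6922), Nr1h3 (with Gm13783 and Madd) and Soat1. The expression of Mvd was not analysed here, and it enters the promoter counts alone.

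Marrow cells of male C57Bl6/J mice, 6 to 12 weeks old, were grown into macrophages in medium with L929-conditioned supernatant as the source of the growth factor CSF-1. They received PBS or 100 ng/mL Poly I:C, a synthetic double-stranded RNA, for 24 h, were washed, and then received PBS or LPS, a bacterial cell-wall lipid, for 2 h or 6 h. The labels give no dose for LPS as the second stimulus. PBS then LPS, Poly I:C then PBS and Poly I:C then LPS each have 2 libraries at each time, and PBS then PBS has 1 at each time, which makes 14 libraries in 8 groups. Cells given Poly I:C first are called primed below. The labels do not say whether the 2 libraries of a group came from separate mice or cultures, so p-values measure the spread between these libraries, which may be technical.

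Cholesterol synthesis starts with acetyl-CoA units that are joined to mevalonate, turned into isoprenoids, condensed to squalene and closed to the sterol rings. When membrane cholesterol is low, SCAP escorts the SREBP transcription factors out of the endoplasmic reticulum, and they switch on the enzymes of the whole route. INSIG proteins hold SCAP back when sterols are plentiful. The LXR nuclear receptors do the opposite job: they bind oxysterols, oxidised forms of cholesterol, and switch on the exporters ABCA1 and ABCG1. In macrophages interferon signalling is known to tie into this system, and Ch25h, which makes an oxysterol that blocks SREBP processing, is a known interferon-induced gene.

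The promoters of the synthesis genes share a short motif. Of the 35 members, 29 have a promoter in the RefSeq table for GRCm38.p6, which gives 250 bases before to 50 bases after each start. The CCAAT box (letters CCAAT, either strand), bound by NF-Y, a known partner of SREBP, was in 15 of 16 synthesis genes with a promoter, or 93.8%, Acat2 being the one without. It was in 41.1% of all 27025 genes with a promoter and 43.2% of the 7736 tested genes with an entry of their own. Among the other members it was in 1 of 6 LXR and efflux genes, 4 of 5 sterol regulators and 2 of 2 transport and storage genes. The box was also in Ggps1, Insig2, Mylip, Npc2 and Soat1, which were higher in primed LPS cells at 2 h. Its presence thus did not follow the direction of change. The GC box (GGGCGG) was in 87.5% of the synthesis genes, 38.2% of all genes and 69.2% of the tested ones. The sterol regulatory element core (TCACNCCAC) was in Hmgcs1 alone among the members and in 1.44% of all genes. The interferon-stimulated response element core was in Ggps1 and Ebp among the members and in 3.99% of all genes. Of these 2, Ggps1 was higher and Ebp lower in primed LPS cells at 2 h. A match is a description of these letters and not a shown binding site. The 150 bases directly before the start are given for 4 genes that were lower in primed cells and for Ggps1, the 1 synthesis gene that was higher, since they show the motifs side by side. Capitals mark the CCAAT box (ATTGG on the opposite strand), and also the sterol element core in Hmgcs1 and the interferon element core in Ggps1. No marked motifs overlap.
Hmgcs1 (chr13:119690201-119690350, plus strand): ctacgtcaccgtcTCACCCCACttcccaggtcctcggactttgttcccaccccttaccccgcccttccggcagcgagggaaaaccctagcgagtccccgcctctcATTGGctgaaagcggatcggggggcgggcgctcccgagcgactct
Idi1 (chr13:8885456-8885605, plus strand): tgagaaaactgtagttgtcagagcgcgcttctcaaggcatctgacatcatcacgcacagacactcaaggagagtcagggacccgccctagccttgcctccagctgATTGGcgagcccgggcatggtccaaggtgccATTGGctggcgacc
Cyp51 (chr5:4104698-4104847, minus strand): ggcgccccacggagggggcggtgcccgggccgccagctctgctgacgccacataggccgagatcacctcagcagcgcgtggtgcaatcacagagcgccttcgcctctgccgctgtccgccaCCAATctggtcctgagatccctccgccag
Srebf2 (chr15:82147119-82147268, plus strand): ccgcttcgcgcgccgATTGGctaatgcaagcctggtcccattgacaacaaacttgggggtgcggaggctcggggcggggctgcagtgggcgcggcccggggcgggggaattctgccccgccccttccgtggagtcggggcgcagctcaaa
Ggps1 (chr13:14063489-14063638, minus strand): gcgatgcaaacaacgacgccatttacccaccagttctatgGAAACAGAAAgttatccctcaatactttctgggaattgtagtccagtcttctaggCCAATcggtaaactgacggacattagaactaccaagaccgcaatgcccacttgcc

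Libraries of one group had a Pearson r over entries of 0.974 to 0.988. The wide range between genes keeps such an r high, so it does not show that single genes were alike. Abca1, given below, differed between the PBS then LPS libraries at 2 h. Macrophage markers were present in all 14 libraries: Cd68 lay between 946 and 2180 FPKM (fragments per kilobase of transcript, scaled to library size), Csf1r between 112 and 330, and Adgre1 between 137 and 671. The sum of the 8 macrophage markers was 13860 to 20640 FPKM in the 6 unprimed libraries and 5361 to 8660 in the 8 primed ones. Lyz2 made up most of the difference, with group means of 11300 to 14800 FPKM without priming and 2520 to 4240 with it, and the other markers did not go one way. At 2 h Cd68 averaged 1410 FPKM in PBS then PBS and 1770 in Poly I:C then PBS, and Fcgr1 35.2 and 558. Mertk was level between these groups (21.3 and 22.2). Adgre1 (317 and 139), Csf1r (330 and 201), Itgam (125 and 25.9) and Cd14 (338 and 125) were lower in Poly I:C then PBS. The sum of 6 stromal markers was 21.5 to 86.3 FPKM in unprimed and 35.6 to 157 in primed libraries. The T cell markers Cd3e, Cd3g and Trbc2, the NK cell marker Ncr1 and the neutrophil markers Elane and S100a9 were listed at 0 in all 14 libraries. Other markers of these types were low but not all at 0: Cd3d reached 0.0968 FPKM, Klrb1c 0.244, Camp 1.39 and S100a8, above 0 in 13 libraries, 7.01. The sum of 3 dendritic cell markers was 0.09 and 0.548 FPKM in the PBS then PBS libraries, and up to 10.2 FPKM in Poly I:C then LPS at 2 h, where Xcr1 averaged 8.43. In Poly I:C then PBS at 6 h, replicate 1 stood apart from replicate 2 in the lipid genes Scd1 (34.5 against 0.156 FPKM) and Fasn (21.5 against 1.82). Without that replicate 1 at 6 h, 24 of the 34 genes passed for Poly I:C alone (27 with it), 11 for LPS in primed cells (15 with it) and 15 for the interaction of LPS and priming (18 with it). The part of these marker shifts in the results below was not tested. In whole-culture RNA, fewer expressing cells and less RNA per cell cannot be told apart.

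**Figure D1:**
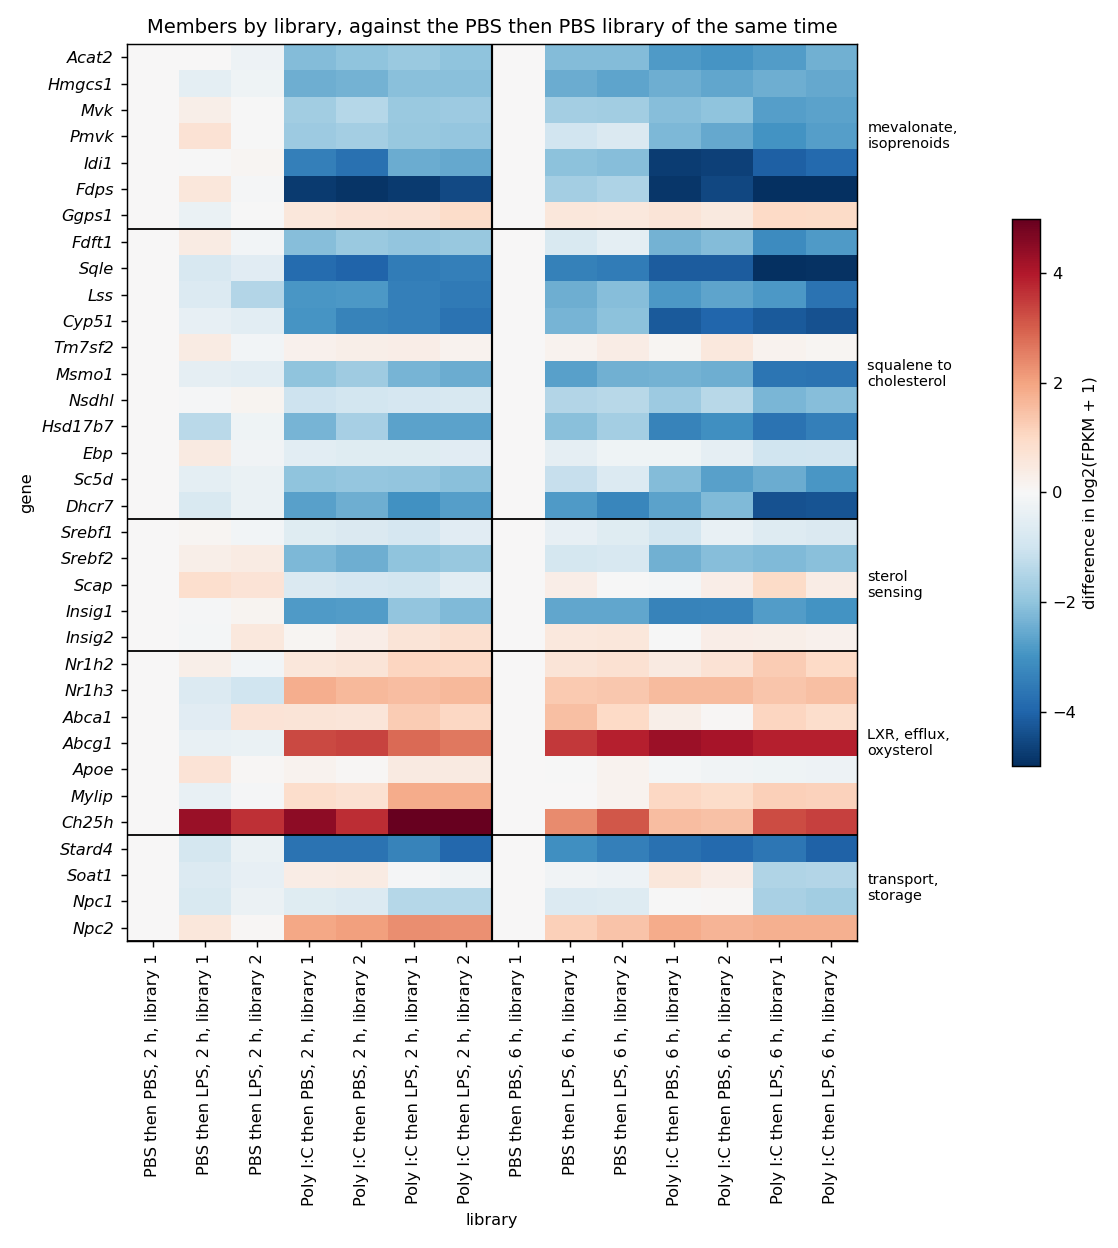
Each row is a gene and each column a library, and the colour is the difference in log2(FPKM + 1) from the PBS then PBS library of the same time, with the scale ending at 5 in each direction. Nearly all synthesis genes are blue in the 8 primed libraries at both times and in the 2 PBS then LPS libraries at 6 h, but not in those at 2 h, while Ggps1 is red in the primed libraries.

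The first comparison asks how earlier Poly I:C changed these genes in cells that then met LPS for 2 h. Of the 34 genes, 22 were lower and 10 higher in primed cells, where 28.5% of all tested entries were lower and 32.6% higher, 61.1% in all. The median log2 fold change of the 34 was -1.55, against 0.054 over all tested entries. The 34 split by role: 16 of 18 synthesis entries fell, and 6 of 7 genes of the LXR and efflux group rose. Both primed libraries lay below both unprimed libraries for 22 genes and above both for 10, where 36.4% and 41.2% of all tested entries did so. A fold change is given as a difference of log2(FPKM + 1) ± its standard error, a scale on which genes near 1 FPKM change by less than they would as a ratio. Passing means an adjusted p (Benjamini-Hochberg, limma) under 0.05.

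Fdps, which makes farnesyl diphosphate, the branch point of sterols and protein prenylation, fell the most. At 2 h it read 156 and 101 FPKM in PBS then LPS and 2.93 and 3.71 FPKM in Poly I:C then LPS. The primed libraries were far below, and the log2 fold change was -4.88 ± 0.20 (adjusted p = 3.44e-08). Fdps lies at chr3:89093588-89101959 (GRCm38, minus strand).

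The earlier enzymes fell too. Hmgcs1, which makes the HMG-CoA from which mevalonate is formed, read 37.2 and 44.7 FPKM without priming and 11.5 and 11.6 with it (-1.74 ± 0.13, adjusted p = 1.64e-06). Idi1, the isomerase of the 5-carbon isoprenoid units, went from 22.7 and 25.0 FPKM to 3.28 and 3.11 (-2.56 ± 0.15, adjusted p = 2.63e-07). In both genes the groups did not overlap. Acat2 (-1.82 ± 0.17), which joins the first acetyl units, and the mevalonate kinases Mvk (-1.96 ± 0.15) and Pmvk (-2.27 ± 0.23) fell by similar amounts.

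Ggps1, which makes geranylgeranyl diphosphate for protein prenylation rather than for sterols, went the other way. It read 4.10 and 5.44 FPKM in PBS then LPS and 9.69 and 11.3 FPKM in Poly I:C then LPS. Its log2 fold change was 1.00 ± 0.15 (adjusted p = 0.000193), and it was the only one of the 18 synthesis entries that rose. The locus listed for this entry is 12.4 times as long as the gene. Those of Sqle (17.8 times) and Ch25h (5.6 times) are also much longer than the gene. The loci of Fdft1 (1.61 times), Scap and Npc1 (1.45 times each), Lss (1.2 times) and Nr1h2 (1.13 times) exceed the gene by less. Which other genes lie in these loci was not checked, and the values of these entries may hold reads from outside the gene.

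On the sterol arm, 10 of 11 entries fell. Cyp51, the lanosterol demethylase, read 24.9 and 23.2 FPKM without priming and 2.20 and 1.69 with it (-3.09 ± 0.18, adjusted p = 2.78e-07). Sqle, which oxidises squalene at a rate-limiting step, read 29.7 and 34.4 FPKM against 3.72 and 4.02 (-2.76 ± 0.13, adjusted p = 8.57e-08). The falls were smallest for Nsdhl (-0.84 ± 0.15), a demethylase complex member, and for the sterol isomerase Ebp (-0.74 ± 0.18, and -0.44 without PBS then LPS replicate 1). Between them lay Fdft1, Lss, Msmo1, Hsd17b7, Sc5d and Dhcr7, from -1.62 to -2.42. Tm7sf2, a sterol reductase whose entry also holds Vps51 and Zfpl1, read 44.0 to 64.1 FPKM in these 4 libraries with overlapping groups (0.11 ± 0.18, adjusted p = 0.605).

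**Figure D2:**
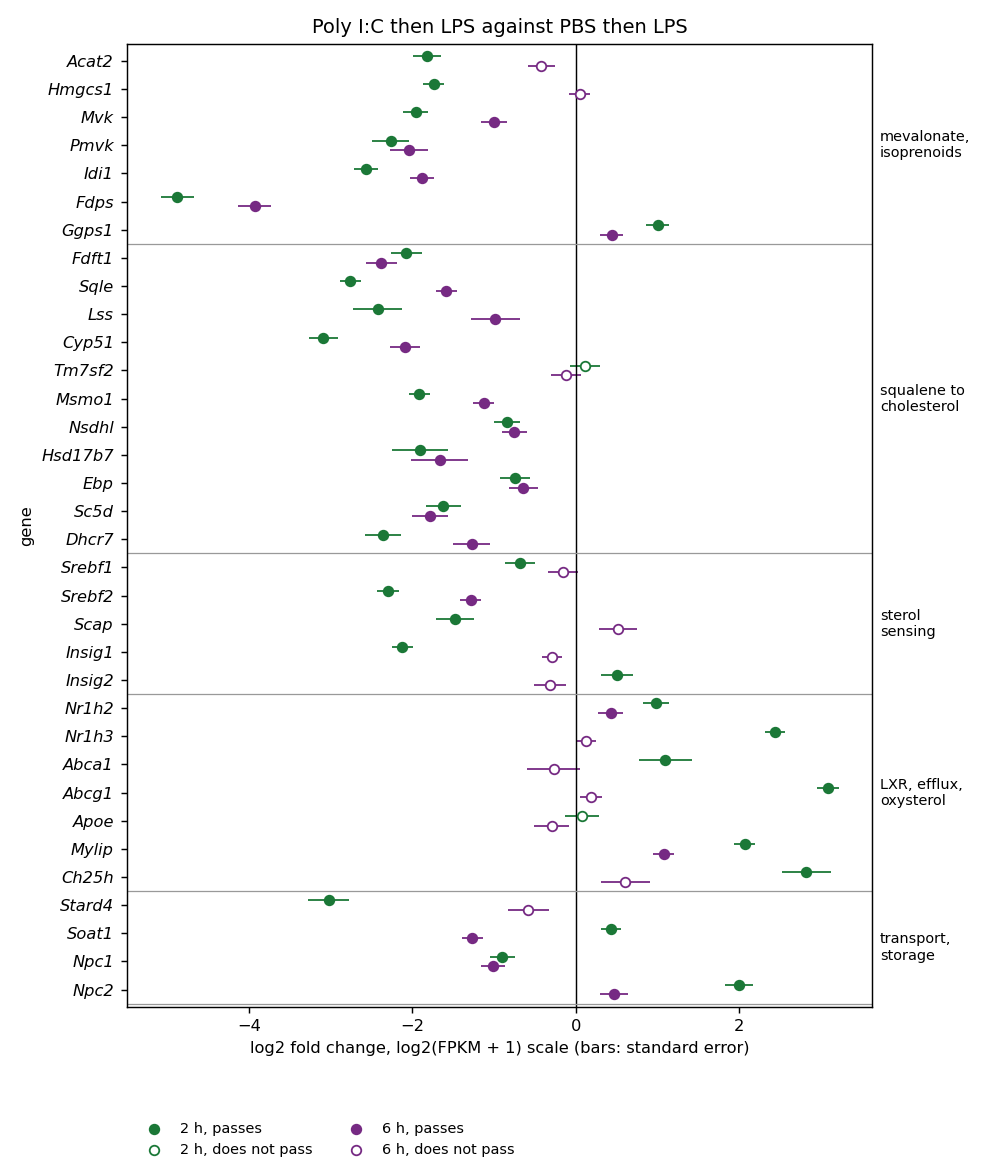
Log2 fold change of Poly I:C then LPS over PBS then LPS for each gene, at 2 h and 6 h, with bars for the standard error and filled points where the adjusted p is under 0.05. At 2 h the synthesis genes lie left of 0 except Ggps1 and Tm7sf2, the LXR and efflux genes other than Apoe lie right of it, and at 6 h Hmgcs1, Insig1 and Abcg1 lie close to 0.

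Among the sterol regulators, Srebf2, the SREBP that mainly drives cholesterol genes, read 63.6 and 68.7 FPKM in PBS then LPS at 2 h and 12.0 and 13.3 in Poly I:C then LPS (-2.30 ± 0.13, adjusted p = 2.54e-07). Insig1, itself a known SREBP target, read 82.1 and 95.0 FPKM against 21.1 and 18.1 (-2.12 ± 0.12, adjusted p = 2.9e-07). Scap fell by less, from 14.3 and 13.0 FPKM to 3.55 and 5.01 (-1.48 ± 0.23, adjusted p = 0.000316). It read 7.57 FPKM in PBS then PBS at 2 h, between the 2 groups. In these genes the primed and unprimed libraries did not overlap.

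The other regulators gave smaller values, and their calls were lost when single libraries were left out. The Srebf1 entry was lower by -0.68 ± 0.18 (adjusted p = 0.00835), and with Poly I:C then LPS replicate 1 left out it was -0.55 (adjusted p = 0.0688). Insig2, the paralogue that is not driven by SREBP in the same way, was higher by 0.51 ± 0.20 (adjusted p = 0.0462). That call was lost without PBS then LPS replicate 1 (0.19) and with replicate 1 (0.59) or replicate 2 (0.43) of Poly I:C then LPS left out, while without PBS then LPS replicate 2 the value was 0.82.

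**Figure D3:**
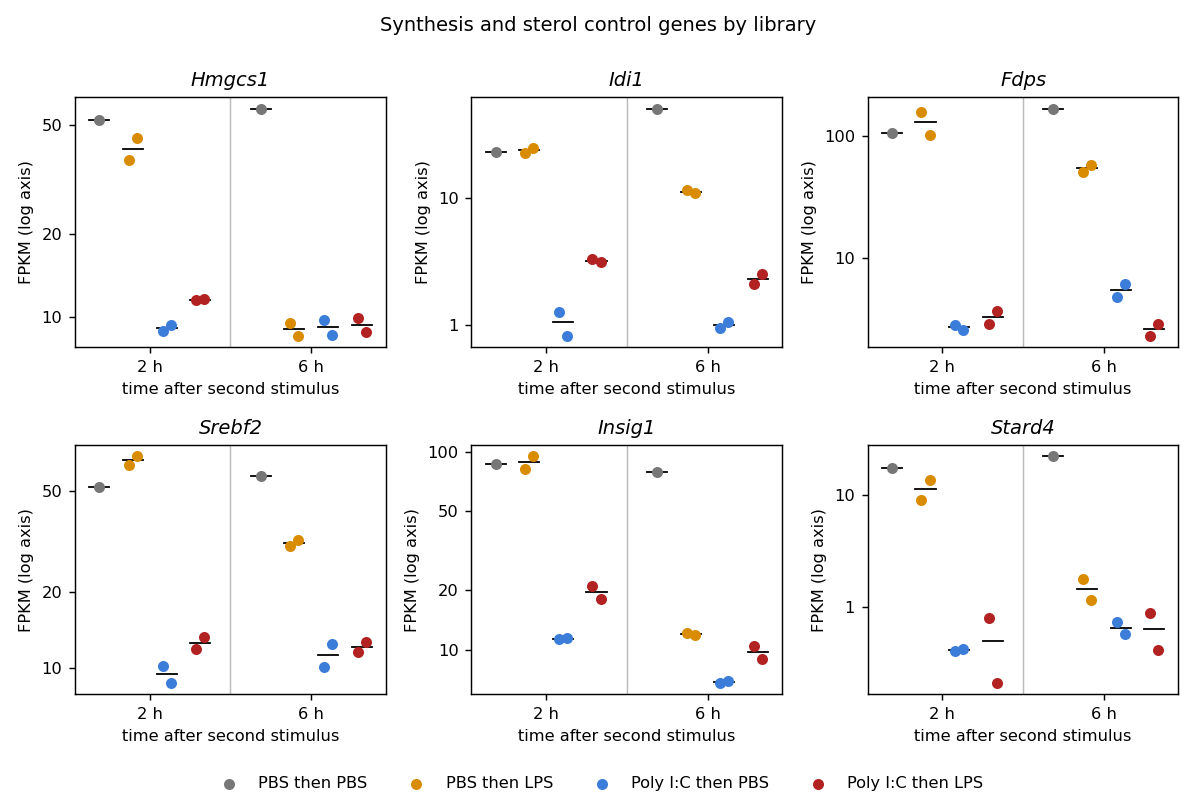
FPKM of 6 synthesis, control and transport genes in each library on a log axis, with points for libraries and lines for group means, at 2 h (left of each panel) and 6 h (right). In every panel both primed groups sit far below PBS then PBS, and PBS then LPS stays near it at 2 h and drops at 6 h.

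Most genes of the LXR and efflux group were higher in primed cells at 2 h. Abcg1, which exports cholesterol to HDL, read 8.89 and 9.14 FPKM in PBS then LPS at 2 h and 89.4 and 78.3 FPKM in Poly I:C then LPS (3.08 ± 0.13, adjusted p = 4.6e-08). Nr1h3 encodes LXR alpha, and its shared entry went from 14.2 and 11.1 FPKM to 70.7 and 74.1 (2.44 ± 0.13, adjusted p = 1.35e-07). Mylip, an LXR target whose product marks lipoprotein receptors for degradation, went from 12.9 and 16.2 FPKM to 63.5 and 63.7 (2.06 ± 0.13, adjusted p = 4.37e-07). These 3 had no overlap between groups. Ch25h read 201 and 125 FPKM without priming and 1069 and 1182 FPKM with it (2.82 ± 0.30, adjusted p = 2.03e-05). Its level after both stimuli was the highest of the 8 groups.

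Nr1h2, which encodes LXR beta, was higher by 0.98 ± 0.16 (adjusted p = 0.000352). Abca1, which loads cholesterol onto apolipoprotein A-I, read 20.0 and 48.3 FPKM in PBS then LPS and 73.6 and 62.0 in Poly I:C then LPS. The unprimed libraries of Abca1 differed from each other by more than the primed ones did. Its log2 fold change of 1.09 ± 0.32 (adjusted p = 0.0137) was 0.48 (adjusted p = 0.0764) without PBS then LPS replicate 1, 0.97 (adjusted p = 0.0771) with replicate 1 of Poly I:C then LPS left out, and 1.71 without PBS then LPS replicate 2. Apoe, a secreted carrier of cholesterol and the most abundant of the members, read 7923 and 5069 FPKM against 6656 and 6677 with overlapping groups (0.07 ± 0.21, adjusted p = 0.782). Without PBS then LPS replicate 1 its value was 0.40 (adjusted p = 0.0238).

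The 4 transport and storage genes did not move as one. Stard4, which carries cholesterol between membranes and is a known SREBP target, read 8.96 and 13.5 FPKM without priming and 0.796 and 0.212 with it (-3.03 ± 0.25, adjusted p = 3.51e-06). Npc2, the small protein that picks up cholesterol in the lysosome, rose from 471 and 329 FPKM to 1583 and 1560 (2.00 ± 0.17, adjusted p = 4.67e-06). Its membrane partner Npc1 fell, from 36.1 and 51.1 FPKM to 22.7 and 22.5 (-0.90 ± 0.15, adjusted p = 0.000438). The Soat1 entry, the enzyme that esterifies cholesterol for storage, was higher by 0.43 ± 0.13 (adjusted p = 0.0134), and 0.30 (adjusted p = 0.0636) without PBS then LPS replicate 1 and 0.36 (adjusted p = 0.0904) without Poly I:C then LPS replicate 1.

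**Figure D4:**
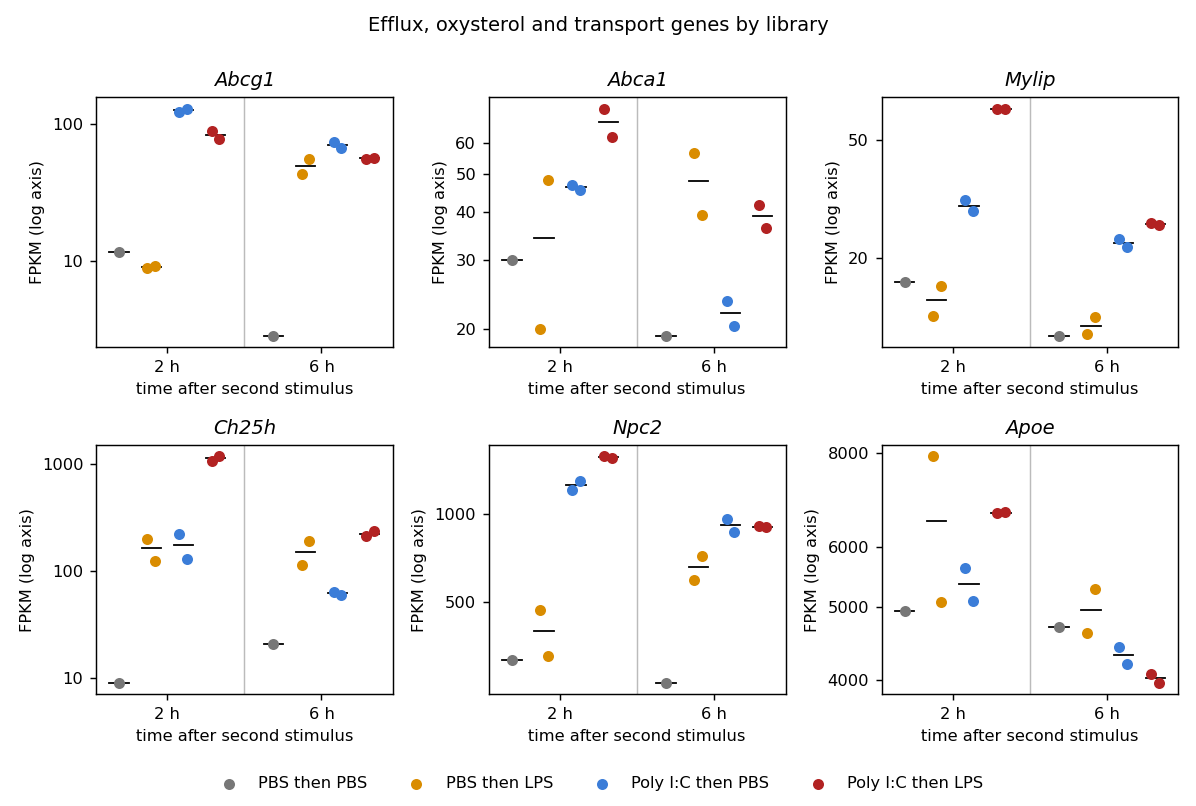
FPKM of 6 efflux, oxysterol and transport genes in each library on a log axis, with points for libraries and lines for group means, at 2 h (left of each panel) and 6 h (right). Abcg1 in PBS then LPS lies near the control at 2 h and near the primed groups at 6 h, Ch25h peaks in Poly I:C then LPS at 2 h, and Apoe spans 3961 to 7923 FPKM over all libraries.

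The same comparison at 6 h gave fewer differences. Of the 34 genes, 17 were lower and 4 higher in primed cells, where 25.9% of tested entries were lower and 23.7% higher, 49.6% in all. The median was -0.61, against 0 over all tested entries. Of the 18 synthesis entries, 14 stayed lower (12 to 14 when 1 library was left out), with a median of -1.20. Fdps was again at the bottom, with 50.9 and 57.4 FPKM in PBS then LPS and 2.34 and 2.91 in Poly I:C then LPS (-3.93 ± 0.20, adjusted p = 4.11e-07). Fdft1 (-2.38 ± 0.19), Cyp51 (-2.09 ± 0.18) and Pmvk (-2.04 ± 0.23) came next. Idi1 (-1.89 ± 0.15), Sc5d (-1.79 ± 0.22), Sqle (-1.58 ± 0.13) and Srebf2 (-1.29 ± 0.13) also stayed lower. Both primed libraries lay below both unprimed ones for 23 genes and above both for 8, where 39.9% and 38.9% of tested entries did so.

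Several calls at 6 h were lost when 1 library was left out. Such a fit leaves 1 library in a group, so a call can be lost with little change in its value. Lss was lower by -0.99 ± 0.30 (adjusted p = 0.0197), but -0.84 and -0.56 (adjusted p = 0.114 and 0.174) without PBS then LPS replicate 2 or Poly I:C then LPS replicate 2. Ebp at -0.64 ± 0.18 (adjusted p = 0.0138) gave adjusted p from 0.052 to 0.0951 without PBS then LPS replicate 2 or either Poly I:C then LPS library. Ggps1 was higher by 0.43 ± 0.15 (adjusted p = 0.0307), and leaving out any 1 of the 4 libraries gave 0.41 to 0.46 with adjusted p from 0.0913 to 0.126. The same held for Npc2, at 0.47 ± 0.17 (adjusted p = 0.0451), with 0.33 to 0.60 and adjusted p from 0.0508 to 0.246. Nr1h2, at 0.42 ± 0.16 (adjusted p = 0.0453), lost its call without either PBS then LPS library or Poly I:C then LPS replicate 1 (0.30 to 0.49).

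Other genes had primed and unprimed levels close to each other at 6 h. Hmgcs1 read 9.48 and 8.52 FPKM in PBS then LPS and 9.89 and 8.80 FPKM in Poly I:C then LPS, with overlapping groups. Its log2 fold change was 0.05, with a 95% interval from -0.24 to 0.34. Abcg1 read 43.3 and 55.8 FPKM against 56.1 and 56.2 (0.19, interval -0.11 to 0.49), and the Nr1h3 entry 40.6 and 41.6 against 43.3 and 46.6 (0.12, interval -0.16 to 0.41). Insig1 (-0.29, interval -0.57 to -0.01), Stard4 (-0.58, interval -1.14 to -0.02) and Acat2 (-0.42, interval -0.80 to -0.04) lay lower without passing after adjustment. Acat2 gave -0.62 (adjusted p = 0.0309) without Poly I:C then LPS replicate 2. Mylip stayed higher, at 26.3 and 25.9 FPKM against 11.1 and 12.7 (1.07 ± 0.13, adjusted p = 7.57e-05). Soat1, higher at 2 h, was lower at 6 h, with 27.3 and 26 FPKM without priming and 10.3 and 10.7 with it (-1.27 ± 0.13, adjusted p = 2.38e-05). Scap, lower at 2 h, read 10.2 and 7.73 FPKM without priming and 16.1 and 10.6 with it at 6 h. That difference did not pass.

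The change in the priming difference between 2 h and 6 h was tested directly. It passed for 23 of 34 genes, 14 more positive and 9 more negative at 6 h, where 44.4% of tested entries passed, 19.1% more positive and 25.3% more negative. The 10 synthesis entries with a positive change were less depressed by priming at 6 h, with Hmgcs1 (1.79 ± 0.18, adjusted p = 3.63e-05) the most. Abcg1 moved by -2.89, Nr1h3 by -2.31 and Ch25h by -2.21. Of these calls, 7 were lost when single libraries were left out: Ggps1 and Insig2 without 7 of the 8 libraries, Abca1 without 5, Dhcr7, Idi1 and Lss without 4 and Fdps without 3. In the unprimed LPS libraries themselves, 16 of 34 genes were lower and 6 higher at 6 h than at 2 h, where 49.4% of tested entries passed. In the primed LPS libraries, 14 were lower and 1 higher, where 40% of tested entries passed and 25.3% were lower. Hmgcs1 shows the difference between the arms: from 2 h to 6 h it fell by 2.06 ± 0.13 in PBS then LPS, while in Poly I:C then LPS the value was -0.28 ± 0.13 (adjusted p = 0.113). Abcg1 rose by 2.32 in PBS then LPS and fell by 0.57 in Poly I:C then LPS, the latter call being lost without Poly I:C then LPS, 2 h replicate 1.

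LPS was then compared with PBS in cells that had seen only PBS. This comparison and the next that use PBS then PBS rest on 1 control library at each time, which was taken to vary like the other groups. At 2 h, 1 of 34 genes was higher and 3 were lower than in PBS then PBS, where 9.47% of tested entries were higher and 6.39% lower. Ch25h was the higher one, at 9.05 FPKM in the control and 201 and 125 with LPS (3.99 ± 0.37, adjusted p = 4.73e-05). The lower ones were Nr1h3 (-0.84 ± 0.16), Sqle (-0.69 ± 0.16) and Soat1 (-0.54 ± 0.16, and -0.41 with adjusted p = 0.0935 without PBS then LPS replicate 1). The count rose from 4 to 10 without PBS then LPS replicate 2.

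At 6 h, LPS alone left 18 of 34 genes lower and 7 higher, where 20.6% of tested entries were lower and 22.9% higher, 43.4% in all. The median was -0.75, against 0.021 over all. Sqle read 75.1 FPKM in the control and 6.26 and 5.74 with LPS (-3.44 ± 0.16, adjusted p = 1.14e-07). Dhcr7, the last reductase of the route, read 30.4 FPKM against 3.39 and 2.27 (-3.05 ± 0.27, adjusted p = 1.02e-05). Stard4 read 22.1 FPKM against 1.77 and 1.15 (-3.24 ± 0.31, adjusted p = 1.54e-05). These libraries lay far below the control. Insig1 (-2.60 ± 0.15), Hmgcs1 (-2.55 ± 0.16) and Msmo1 (-2.56 ± 0.16) fell alike, and Srebf2 by less (-0.86 ± 0.16, adjusted p = 0.00158). In all, 14 of 18 synthesis entries were lower (12 to 13 when 1 library was left out).

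The LXR and efflux group rose with LPS at 6 h in 5 of 7 members. Abcg1 read 2.83 FPKM in the control and 43.3 and 55.8 FPKM with LPS (3.71 ± 0.16, adjusted p = 7.23e-08). Ch25h (2.74 ± 0.37), Nr1h3 (1.33 ± 0.16) and Nr1h2 (0.71 ± 0.19, and 0.64 with adjusted p = 0.0609 without PBS then LPS replicate 2) rose too. Abca1 rose from 19.2 FPKM to 56.5 and 39.2 (1.25 ± 0.40, adjusted p = 0.0267), and gave 0.99 (adjusted p = 0.123) without PBS then LPS replicate 1. Mylip (0.10 ± 0.16) and Apoe (0.07 ± 0.26) did not pass. Npc2 rose by 1.31 ± 0.21 (adjusted p = 0.000597).

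The effect of LPS in primed cells was read against Poly I:C then PBS. At 2 h it left 5 of 34 higher and 4 lower, where 14% of tested entries were higher and 8.72% lower. The total of 9 fell to 5 without Poly I:C then PBS replicate 2 or Poly I:C then LPS replicate 2. Ch25h (2.73 ± 0.30), Mylip (1.06 ± 0.13), Idi1 (1.05 ± 0.15) and Insig1 (0.72 ± 0.12) were higher. Idi1 read 1.27 and 0.819 FPKM in Poly I:C then PBS and 3.28 and 3.11 FPKM in Poly I:C then LPS, still far below the 23.0 FPKM of the control. At 6 h, 5 were higher and 10 lower, where 21.7% of tested entries were higher and 22.2% lower, 43.9% in all. The total of 15 fell to 9 without Poly I:C then LPS replicate 1. Dhcr7 fell from 3.96 and 5.73 FPKM to 0.532 and 0.595 (-1.89 ± 0.22, adjusted p = 6.73e-05), Msmo1 by 1.29 ± 0.13 and Npc1 by 1.71 ± 0.15. Soat1 fell from 47.2 and 40.1 FPKM to 10.3 and 10.7 (-1.96 ± 0.13, adjusted p = 1.04e-06), while LPS in unprimed cells gave -0.23 ± 0.16 (adjusted p = 0.27).

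**Figure D5:**
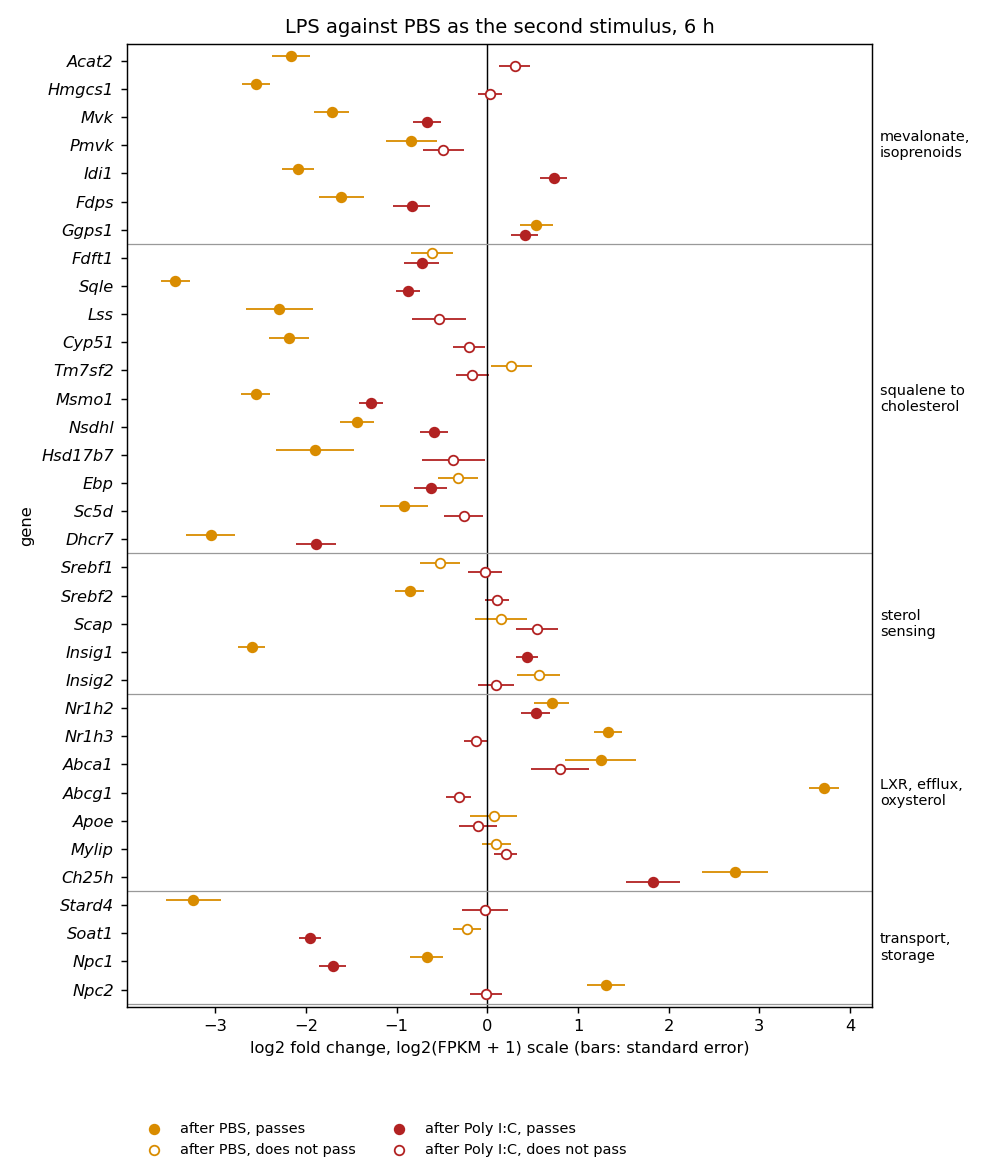
Log2 fold change of LPS over PBS as the second stimulus at 6 h, in unprimed and in primed cells, with bars for the standard error and filled points where the adjusted p is under 0.05. Hmgcs1, Insig1, Stard4 and Abcg1 lie far from 0 in unprimed cells and near it in primed cells, and Soat1 shows the reverse.

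Whether LPS acted differently in primed and unprimed cells was tested as an interaction, the LPS effect after Poly I:C minus that after PBS. At 2 h it passed for 3 of 34 genes, Idi1 (1.00 ± 0.23), Sqle (1.16 ± 0.21) and Mylip (1.25 ± 0.20), all 3 positive, where 4.29% of tested entries passed and 2.52% were positive. None of the 3 calls held in all settings: the count was 1 without Poly I:C then PBS replicate 2 or Poly I:C then LPS replicate 2, and 7 without PBS then LPS replicate 2. At 6 h it passed for 18 of 34, 13 positive and 5 negative, where 12.7% of tested entries were positive and 16.7% negative. The median was 0.45, against -0.071 over all. Stard4 (3.22 ± 0.40), Insig1 (3.04 ± 0.20), Idi1 (2.82 ± 0.23), Hmgcs1 (2.58 ± 0.20) and Sqle (2.56 ± 0.21) had the highest values. In Poly I:C then PBS at 6 h, Stard4 read 0.74 and 0.581 FPKM and Idi1 0.936 and 1.04. On the log2(FPKM + 1) scale such levels leave little room for a fall with LPS in primed cells. Sqle read 3.28 and 3.29 FPKM there, too low for a fall as large as the 3.44 of unprimed cells. Acat2 (1.87 and 1.69 FPKM), Cyp51 (1.82 and 2.35) and Lss (2.10 and 2.64) read low there too. For such genes a positive value was in part fixed by the scale, and the count of 13 includes some of them. Insig1 (6.83 and 7.04) and Hmgcs1 (9.73 and 8.57) read higher there. Abcg1 had the lowest (-4.03 ± 0.21, adjusted p = 1.24e-06), followed by Soat1 (-1.73 ± 0.20), Nr1h3 (-1.46 ± 0.20), Npc2 (-1.32 ± 0.27) and Npc1 (-1.04 ± 0.24). For Idi1 LPS raised the level in primed cells (0.73 ± 0.15) and lowered it in unprimed cells. Insig1 gave 0.44 ± 0.12 in primed cells (adjusted p = 0.0156), a call that was lost (0.34 to 0.46, adjusted p from 0.0526 to 0.128) without either Poly I:C then PBS library or replicate 1 of Poly I:C then LPS.

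The effect of Poly I:C without LPS was read against PBS then PBS, the same control libraries as for LPS alone. At 2 h after the change of medium, 21 of 34 genes were lower and 7 higher in Poly I:C then PBS than in PBS then PBS, where 22.4% of tested entries were lower and 24.9% higher, 47.3% in all. At 6 h, 19 were lower and 8 higher, where 16.1% and 18.4% were. At each time 15 of 18 synthesis entries were lower, with medians of -2 and -2.44. Fdps read 106 FPKM in the control at 2 h and 2.88 and 2.62 after Poly I:C, and 167 against 4.84 and 6.12 at 6 h (-4.84 ± 0.25 and -4.70 ± 0.25). Idi1 reached -4.71 ± 0.18 at 6 h, from 50.9 FPKM to 0.936 and 1.04, and Sqle -4.15 ± 0.16. Stard4 was lower by -3.69 ± 0.31 and -3.80 ± 0.31. Of the 5 sterol regulators, 4 were lower at 2 h, but 2 of 5 without either Poly I:C then PBS library, Srebf2 (-2.33 ± 0.16) and Insig1 (-2.82 ± 0.15).

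Abcg1 rose with Poly I:C alone from 11.7 to 123 and 130 FPKM at 2 h, and from 2.83 to 74.3 and 66.4 FPKM at 6 h (3.33 ± 0.16 and 4.22 ± 0.16). Ch25h rose from 9.05 to 220 and 130 FPKM at 2 h and from 21.2 to 64.2 and 60.4 FPKM at 6 h. Abca1 gave 0.61 ± 0.40 (adjusted p = 0.237) and 0.18 ± 0.40 (adjusted p = 0.769), and the 2 h value was 0.91 (adjusted p = 0.0354) with both PBS then PBS libraries taken as 1 control. From 2 h to 6 h in Poly I:C then PBS, 4 of 34 genes were higher and 6 lower, where 30.4% of tested entries passed. That total of 10 fell to 3 without Poly I:C then PBS, 2 h replicate 1, and to 4 without its replicate 2 or without the 6 h replicate 2.

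As a share of the PBS then PBS level, the 17 synthesis genes with an entry of their own had a median of 87.1% after LPS alone at 2 h and 22% at 6 h. After Poly I:C alone the medians were 17.4% and 15.9%, and after both stimuli 19.2% and 10.2%. Fdps went as low as 1.57% after both stimuli at 6 h, while Ggps1 reached 215%. The control itself moved between times: 16 of the 17 genes read higher in the 6 h than in the 2 h control library, with a median ratio of 1.54 and a range from 0.951 to 2.22. In the efflux group the same ratio was 0.243 for Abcg1, 0.641 for Abca1, 0.675 for Nr1h3 and 2.34 for Ch25h. With 1 control library at each time this has no replicate check, and it enters each 6 h comparison with PBS then PBS. With both PBS then PBS libraries as 1 control, the 6 h values of Abcg1 were 2.85 for LPS alone, 3.35 for Poly I:C alone and -3.17 for the interaction, against 3.71, 4.22 and -4.03.

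The neighbouring parts of lipid metabolism were read from 5 further lists, in the comparison of Poly I:C then LPS with PBS then LPS. Their counts stand beside 28.5% lower and 32.6% higher over all tested entries at 2 h, and 25.9% and 23.7% at 6 h. Of 13 other sterol and isoprenoid enzymes, 9 were lower and 1 higher at 2 h, and 7 were lower at 6 h. Acat1 was lower at both times (-2.03 ± 0.20 and -1.62 ± 0.20), and Lbr, a sterol reductase of the nuclear envelope, at 2 h (-1.47 ± 0.15) but not at 6 h (0.20 ± 0.15). Of 10 genes for SREBP processing, 2 were lower and 3 higher at 2 h, and 2 lower and 1 higher at 6 h (0 lower and 0 higher without PBS then LPS replicate 1 or Poly I:C then LPS replicate 1, 0 lower without Poly I:C then LPS replicate 2, 1 lower without PBS then LPS replicate 2). At 2 h the lower count was 4 without PBS then LPS replicate 1. These shares of SREBP processing genes were not above those of all tested entries, 61.1% at 2 h and 49.6% at 6 h in either direction. Mbtps1, the protease that makes the first cut in SREBP, was lower at 2 h (-1.09 ± 0.14).

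Of 20 genes for sterol uptake and trafficking, 8 were lower and 6 higher at 2 h, and 12 were lower and 4 higher at 6 h. The total at 2 h, 14 of 20, was near the 61.1% of all tested entries. Soat2, the second cholesterol-esterifying enzyme, read 0.605 and 0.521 FPKM in PBS then LPS and 27.1 and 26.2 in Poly I:C then LPS at 2 h (4.15 ± 0.15, adjusted p = 1.6e-08). It was also higher at 6 h (3.10 ± 0.15), with 0.455 and 0.811 FPKM against 14.2 and 11.8. All 6 unprimed libraries read under 1 FPKM for Soat2 and all 8 primed ones read 11.8 or more. The scavenger receptors Scarb1 (-2.49 ± 0.14 and -1.66 ± 0.14) and Cd36 (-2.06 ± 0.23 and -2.62 ± 0.23) were lower at both times. Gramd1b, which carries cholesterol from the plasma membrane to the endoplasmic reticulum, was higher at both (1.59 ± 0.11 and 2.54 ± 0.11).

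Of 14 LXR partners and further targets, 5 were higher and 4 lower at each time. That is near the share of all tested entries called at 2 h, 61.1%. At 2 h the count of higher genes fell to 2 with replicate 2 of Poly I:C then LPS left out, and to 3 with its replicate 1 or with replicate 2 of PBS then LPS left out. At 6 h it fell to 3 without PBS then LPS replicate 1 or Poly I:C then LPS replicate 2, and the lower count to 2 without PBS then LPS replicate 2. Lpl, a lipase that LXR is known to induce, was much lower (-2.75 ± 0.19 and -4.01 ± 0.19), while the LXR target Smpdl3a was higher (1.06 and 0.60). Of 20 genes for fatty acid synthesis, 12 were lower and 3 higher at 2 h, and 7 lower and 3 higher at 6 h. The total at 6 h, 10 of 20, was near the 49.6% of all tested entries. The higher count was 1 at 2 h without PBS then LPS replicate 1 or either Poly I:C then LPS library, and 1 at 6 h without Poly I:C then LPS replicate 1. Fads2, a desaturase, went from 25.4 and 28.2 FPKM to 0.461 and 0.573 at 2 h (-4.20 ± 0.21), and Scd2 fell alike (-3.91 ± 0.25). Acsl1, which activates fatty acids and is a known LPS-induced gene, rose from 34 and 43.5 FPKM to 335 and 349 (3.12 ± 0.14).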

How the data were processed

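Stranded mRNA libraries of 14 macrophage samples were sequenced, per the labels' protocols. The authors deposited FPKM per entry, and the submitters' processing notes name TopHat2, Cufflinks and Cuffnorm without versions. FPKM divides fragments by length and by a scale for each library. Factors from the median ratio of each library to the mean over libraries lay between 0.992 and 1.04. The deposited values were thus already alike between libraries on that scale. The notes name mm9, but 33792 of 33853 entries naming 1 gene overlap that gene in GRCm38, so coordinates are given as GRCm38. The table holds no counts, and absolute depth is unknown. The spacing of low values gave a value of 1 fragment that differed 3.07-fold between libraries, within 0.1 log2 of the fit for 91 of 91 pairs. Entries without a name (1859) were left out.

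Of the named entries, those reaching 1 FPKM in 2 or more libraries (11977, of which 832 name several genes) were fitted as log2(FPKM + 1), a pseudocount of 1, with limma 3.58.1 in R 4.3.3. The model had 1 mean per group over all 14 libraries, empirical Bayes with an intensity trend and 6 residual degrees of freedom. The 2-sided tests were adjusted by Benjamini-Hochberg over all tested entries in each of 14 comparisons. The script was tested on simulated data. Every listed member could be named, and from each further list up to 6 genes with the largest change among those that passed. The members and lists were chosen with earlier results of these data known. From the further lists 2 symbols were dropped, 1 that belongs to another gene and 1 older name of a listed gene. Motifs were searched on both strands of RefSeq promoters (GRCm38.p6). Figures used matplotlib 3.10.9. Alternatives were other pseudocounts, filters and scalings, no trend, 1 time alone, a pooled control, a replicate block and leaving out each library, and, chosen after seeing the data, entries naming 1 gene alone.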

Additional observations from a re-analysis of the deposited data

Results flagged for a closer look

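The difference between primed and unprimed LPS cells was tested between 6 h and 2 h, and 23 genes passed in limma (adjusted p under 0.05). In log2, 6 h minus 2 h, the synthesis genes gave Acat2 1.40, Hmgcs1 1.79, Mvk 0.96, Idi1 0.68, Fdps 0.95, Ggps1 -0.56, Sqle 1.17, Lss 1.44, Cyp51 1.00, Msmo1 0.79 and Dhcr7 1.08. The regulators gave Srebf2 1.009, Scap 2.00, Insig1 1.83 and Insig2 -0.82. The LXR and efflux genes gave Nr1h3 -2.31, Abca1 -1.36, Abcg1 -2.89, Mylip -0.99 and Ch25h -2.21. Transport and storage genes gave Stard4 2.45, Soat1 -1.70 and Npc2 -1.53.

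Outside these genes, 1 library differed in adipocyte markers. Poly I:C then PBS at 6 h replicate 1 read 17.5 FPKM for the adipocyte gene Adipoq, 3.41 FPKM for Plin1 and 0.809 FPKM for Lep, which were listed at 0 in the other 13 libraries. The same library differed from its replicate in the fatty acid genes Scd1 (34.5 against 0.156 FPKM) and Fasn (21.5 against 1.82 FPKM).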

How the results depend on the processing

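No call reversed in any setting. Of 5520 values of single genes under an alternative, 5197 kept their side of the threshold, 272 lost the call and 51 gained it. All calls held in all settings for 28 of 32 genes for priming at 2 h, 16 of 21 at 6 h and 14 of 18 for the 6 h interaction. Counts of the 34 genes that passed moved by over 1.5 times in these cases, and the cause was not tested. From 2 h to 6 h in Poly I:C then PBS the count was 10, and 3 with no filter. For LPS in unprimed cells at 2 h it was 4, and 2 with libraries of 1 time alone, 12 with a pooled control and 2 with entries naming 1 gene alone. For the 2 h interaction it was 3, and 0 with libraries of 1 time alone (195 of all entries passed there).

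Leaving out 1 library gave 3 to 7 from 2 h to 6 h in Poly I:C then PBS, 4 to 10 for LPS in unprimed cells at 2 h, 1 to 7 for the 2 h interaction, 5 to 7 for LPS in primed cells at 2 h (9 in all) and 9 to 14 at 6 h (15 in all). Over all entries the 2 h to 6 h count in Poly I:C then PBS was 3636, and 2176 with no filter. For LPS in unprimed cells at 2 h it was 1899, and 1176 with 1 time alone and 2873 with a pooled control. The 2 h interaction had 514.

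Like-numbered libraries did not deviate together (correlations -0.19 to 0.0778 over 15 pairs), so no pairing by number was seen. This cannot show whether they shared a mouse or culture, which the labels do not give. A replicate block took the priming call at 6 h from Npc2 (adjusted p = 0.0659) and Nr1h2 (adjusted p = 0.0635). Depth is unknown, which limits genes near 1 FPKM, such as Stard4 in primed cells.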
